A study of Rattus norvegicus with 15 samples.

Results

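Connexins are the proteins of gap junctions, and this report describes 5 rat connexin genes, Gjb2, Gjb1, Gja1, Gja4 and Gja5, in whole kidneys. The genes are 5 of 10969 named on the arrays. Every probe set whose symbol in the array annotation was one of them was taken, which gave 12 of 26379 probe sets, 7 on array design A, 2 on B and 3 on C. Of the 7 on A, 5 were bright enough to be tested, as were 1 of the 2 on B and all 3 on C. Gjb2 was selected on its strain difference on array C, so that difference is given as a description without a test. The other genes belong to the same family. The arrays were hybridised with total RNA from kidneys of 5-week-old rats. The congenic kidneys, numbers 4 and 5 on B and C (n = 2), came from a strain congenic for chromosome 10 that was made on the Dahl background. The Dahl S kidneys, numbers 1 to 3 on each design (n = 3), came from the Dahl salt-sensitive strain, an inbred line in which dietary salt raises blood pressure, and all groups share that background. On array A kidneys 4 and 5 are described as Dahl S although the same numbers are described as congenic on the other designs, so their strain is unsettled there and their values are given one by one. The labels give neither the donor of the segment, nor its extent, nor the sex of the animals. Nor do they say whether each kidney is from another animal, and the spread behind the p-values may therefore be technical.

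Each connexin crosses the membrane several times, connexins assemble into a ring called a hemichannel, and hemichannels of neighbouring cells dock to form a channel that passes ions and small molecules such as second messengers. Gjb2 (Cx26) and Gjb1 (Cx32) encode connexins of the beta group that are best known from liver and that have been described in tubular epithelium of the kidney. Gja1 (Cx43), Gja4 (Cx37) and Gja5 (Cx40) encode connexins of the alpha group that couple the cells of vessel walls, and in mice loss of Cx40 disturbs the control of renin release.

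None of the 5 genes lies on chromosome 10, the chromosome of the congenic segment. Gjb2 is on chromosome 15, Gjb1 on X, Gja1 on 20, Gja4 on 5 and Gja5 on 2. The 250 bases before the start of Gjb2 in the RefSeq annotation of rat assembly GRCr8 (chr15:35381954-35382203, minus strand) are shown because Gjb2 was the connexin with strain values that did not overlap. Capitals mark matches to 2 motifs searched on both strands, GGGCGG (a GC box, here on the opposite strand and so read as its complement) and TTAAAA.
Gjb2 promoter: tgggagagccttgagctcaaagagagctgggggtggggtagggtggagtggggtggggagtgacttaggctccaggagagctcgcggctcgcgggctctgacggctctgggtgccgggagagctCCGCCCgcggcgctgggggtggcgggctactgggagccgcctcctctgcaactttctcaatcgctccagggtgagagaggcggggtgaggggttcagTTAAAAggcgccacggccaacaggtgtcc
The GC box begins 126 bases before the start and TTAAAA 29 bases before it. Of 33469 windows of this length in the same table, 30.5% hold GGGCGG and 19.0% hold TTAAAA on either strand. The Gjb2 window is 67.2% G and C with 16 CpG, against medians of 51.2% and 5 over all windows. The Gja4 window is also rich in G and C, at 63.2% with 13 CpG, followed by Gja5 (54.8%, 5 CpG), Gja1 (51.2%, 8 CpG) and Gjb1 (49.2%, 2 CpG). The GC box was found for Gjb2, Gja4 and Gja5, and TTAAAA for all but Gja4. A match is a description of these letters and not a site of binding.

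The deposited values are a signal intensity per probe set, scaled by the authors to a like mean on each array, and levels of different probe sets are not compared. The median signal of an array was 294.5 to 334.3 for design A, 472.8 to 519.5 for design B and 491.3 to 524.4 for design C. Values were raised to a floor of 85.1 on A, 140.1 on B and 153.6 on C before log2 was taken, and a probe set was tested where its mean over the 5 kidneys reached 319.5, 485.8 or 510.3. With 2 or 3 arrays a group, precision is limited by their number. Whether a kidney number marks the same kidney on every design is not stated. Across the 365 to 600 genes tested on a pair of designs, the log2 values of kidney 4, each centred on the mean of the 5 kidneys, correlated with those of kidney 4 on another design at Pearson r of 0.244 to 0.324, and those of kidney 1 at 0.200 to 0.238. The same value was between 0.000 and 0.075 for kidneys 2, 3 and 5, and between -0.274 and 0.121 for kidneys of different numbers. These correlations are across genes, which are not independent replicates.

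On array C the Gjb2 signal was lower in the congenic kidneys than in every Dahl S kidney. Probe set rc_AI179953_at measured 9820.1 and 8805.8 in congenic kidneys 4 and 5, against 15134.2, 13020.0 and 15149.4 in Dahl S kidneys 1 to 3. The strains did not overlap, with the higher congenic value under the lowest Dahl S value. The mean was 9313 ± 717 in congenic kidneys (SD, n = 2) and 14435 ± 1225 in Dahl S kidneys (SD, n = 3), a log2 difference of -0.63 (SE 0.15) or 1.55-fold lower. In whole kidneys fewer cells of a type and less RNA per cell cannot be told apart. On array C the values of congenic kidneys lay below those of all Dahl S kidneys for 12.2% of the 4420 tested probe sets. Of these 4420, 56 (1.27%) had a difference as low as that of Gjb2 or lower, and so had 3, Gjb2 included, of the 141 with a mean signal of 10000 or more, whose median difference was -0.09. No p is given for this difference because it is the one for which Gjb2 was listed.

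The other Gjb2 probe sets did not show this separation. On array B, rc_AI060283_s_at measured 1904.0 and 1338.1 in congenic kidneys 4 and 5, against 1303.9, 2443.8 and 1991.6 in Dahl S kidneys 1 to 3. The groups overlapped, and the lowest value belonged to a Dahl S kidney. The log2 difference was -0.21 (SE 0.29, 95% interval -0.91 to 0.48, limma adjusted p = 0.998), with means of 1621 ± 400 in congenic (SD, n = 2) and 1913 ± 574 in Dahl S kidneys (SD, n = 3). That interval holds both 0 and the value found on array C. On array B 0.0912% of 4385 tested probe sets passed an adjusted p of 0.05, and strain values did not overlap for 17.2%. On array A, X51615_g_at measured 2682.9 and 1950.8 in kidneys 4 and 5, whose strain is unsettled, against 2361.9, 2179.7 and 2249.1 in Dahl S kidneys 1 to 3. Kidney 4 was the highest and kidney 5 the lowest of the 5, on either side of the Dahl S range.

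Set side by side, the 3 Gjb2 probe sets ranked kidney 5 last or next to last and kidney 4 differently. Relative to the mean of Dahl S kidneys 1 to 3 of the same design, kidney 5 was at -0.21 on the log2 scale for array A, -0.47 for array B and -0.71 for array C. Kidney 4 was at 0.25 for array A, 0.04 for array B and -0.55 for array C. Counted from the highest of the 5, kidney 5 thus ranked 5, 4 and 5 on these arrays and kidney 4 ranked 1, 3 and 4. The low ranks on array C come with the difference for which Gjb2 was listed, so they add nothing to the agreement. On array B kidney 5 (1338.1) lay inside the Dahl S range of 1303.9 to 2443.8, and on array A its strain is unsettled. The log2 SD among the Dahl S kidneys was 0.06 for the probe set of array A, 0.46 for that of B and 0.13 for that of C, so the probe set of array B varied most among kidneys of 1 strain. The difference between probe sets was not tested. The part of the transcript that each probe set reads was not known here. On array A a further probe set, X51615_at, carries the same sequence accession as the Gjb2 probe set but is assigned to Pzp in the annotation, so it was not taken as a member. Its signal was low, 147.1 and 97.7 in kidneys 4 and 5 against 98.3, 129.8 and 84.3 in kidneys 1 to 3.

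**Figure D1:**
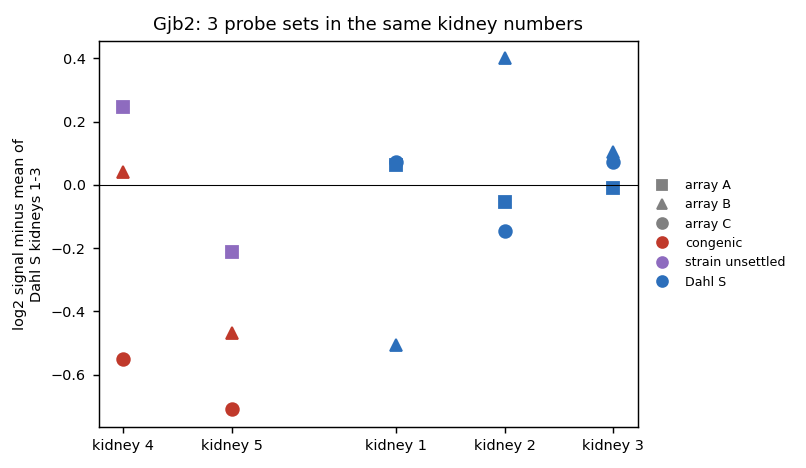
Log2 signal of the 3 Gjb2 probe sets in each kidney, minus the mean of Dahl S kidneys 1 to 3 of the same array design (vertical axis), for kidneys 4 and 5 (left) and kidneys 1 to 3 (right). Each point is 1 array, shapes mark the design and colours the strain. Kidney 5 lies below 0 for all 3 probe sets (-0.21, -0.47 and -0.71), while kidney 4 lies between 0.25 on A and -0.55 on C. The array C values are those for which Gjb2 was listed.

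The named probe sets whose log2 values, centred on the mean of the 5 kidneys, came nearest to Gjb2 were found separately on A and C. On C the Gjb2 values used are those for which Gjb2 was listed. Probe sets near it there share its low values in kidneys 4 and 5 by construction, so the list is a description. On array C the nearest of 3505 was Pmm1, a phosphomannomutase, with a root mean square difference of 0.036 on the log2 scale over 5 kidneys, where the median over all probe sets was 0.348. Pmm1 measured 445.8 and 406.7 in congenic kidneys, against 716.2, 622.4 and 737.6 in Dahl S kidneys. It was followed by Suz12 of the Polycomb complex (0.083) and Tp53i13 (0.092). Next came the spliceosomal helicase gene Snrnp200 (0.096), the chromatin reader gene Ing1 (0.099) and Pgrmc2, a membrane haem-binding protein gene (0.100). Suz12 and Tp53i13 lie on chromosome 10, and the share of chromosome 10 among the compared probe sets was not counted. On array A the nearest of 3683 was Eed, a Polycomb subunit, at 0.024 (median 0.257). Eed measured 457.5 and 343.4 in kidneys 4 and 5 against 404.9, 369.8 and 396.8 in Dahl S kidneys. The next were Gpd1 (0.029), a glycerol phosphate dehydrogenase, the proteasome subunit Psmd4 (0.042), the oxysterol receptor Nr1h2 (0.046), Ddt (0.047) and the respiratory chain subunit Ndufb8 (0.047).

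Gjb1, the other beta connexin, was measured by 1 probe set, on array A. X04070_at measured 866.9 and 916.7 in kidneys 4 and 5, against 638.4, 761.4 and 474.5 in Dahl S kidneys 1 to 3. Both kidneys of unsettled strain lay above every Dahl S kidney, at 0.50 and 0.58 above the Dahl S mean on the log2 scale, where the SD of the Dahl S kidneys was 0.35. On array A 2 of the 5 tested connexin probe sets, Gjb1 and a Gja5 probe set, had both kidneys 4 and 5 above kidneys 1 to 3, and none had both below. Kidneys 4 and 5 both lay above kidneys 1 to 3 for 8.82% of the 4411 tested probe sets and both below for 10.1%. No strain comparison was made, because the strain of kidneys 4 and 5 is unsettled on this design.

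**Figure D2:**
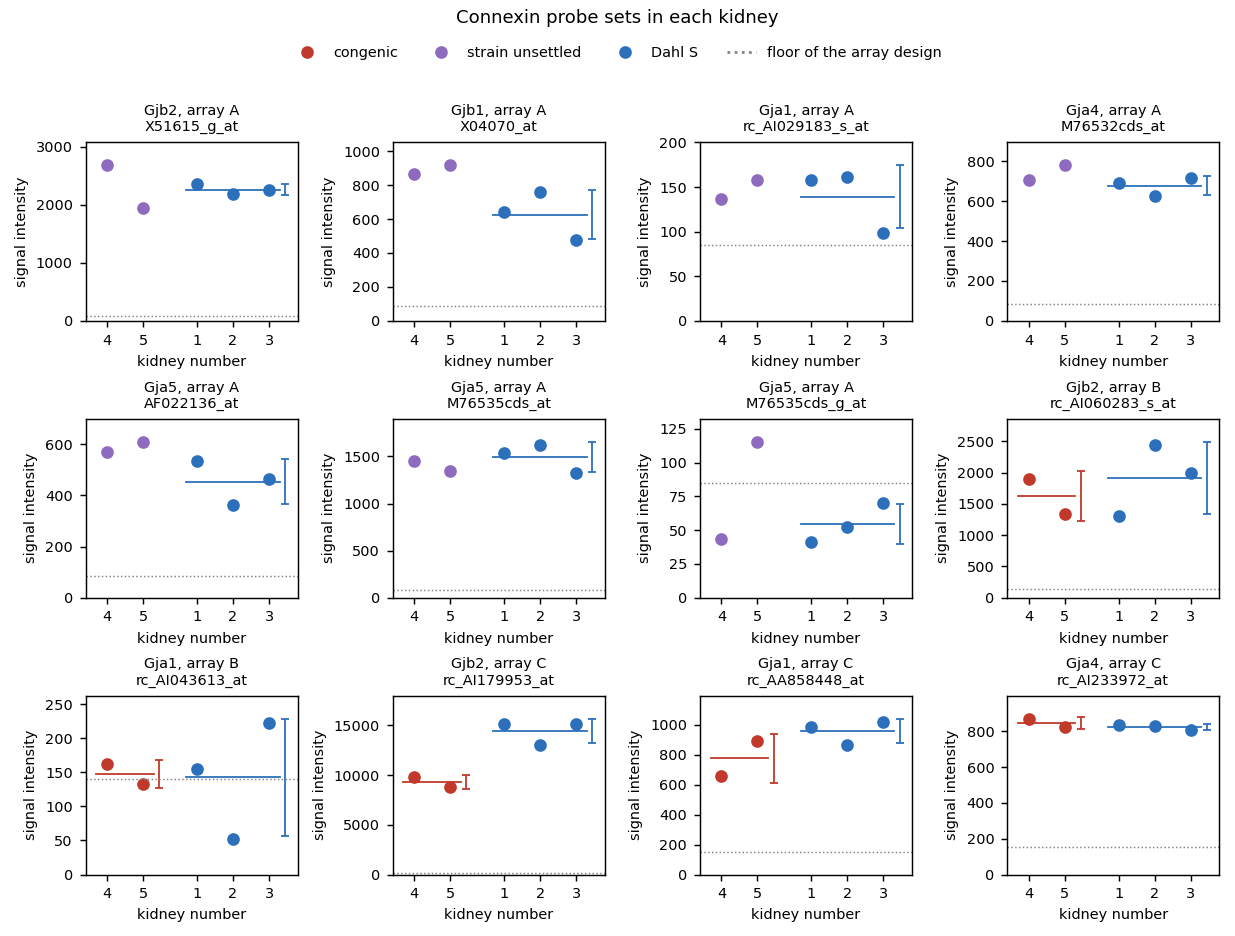
Signal intensity (vertical axes, linear, from 0) of the 12 connexin probe sets in each kidney, with kidneys 4 and 5 left of kidneys 1 to 3. Horizontal lines with bars are the mean ± SD of the Dahl S kidneys (n = 3) and, on B and C, of the congenic kidneys (n = 2), and the dotted line is the floor of the design. On array C the 2 congenic values of Gjb2 lie under all 3 Dahl S values, and on array A both values of Gjb1 and of the Gja5 probe set AF022136_at in kidneys 4 and 5 lie over those of kidneys 1 to 3.

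Gja1, the most widely expressed connexin of heart and vessel walls, was bright enough to be tested only on array C. There rc_AA858448_at measured 661.8 and 892.3 in congenic kidneys 4 and 5, against 988.6, 867.4 and 1022.2 in Dahl S kidneys 1 to 3. Congenic kidney 4 was the lowest of the 5, and kidney 5 lay within the Dahl S range. The log2 difference was -0.32 (SE 0.17, 95% interval -0.72 to 0.09, limma adjusted p = 0.853), with means of 777 ± 163 in congenic (SD, n = 2) and 959 ± 81.4 in Dahl S kidneys (SD, n = 3). It was -0.10 without kidney 4 and -0.53 without kidney 5. None of the 4420 tested probe sets passed the threshold on array C (0%), and 274 (6.2%) had an unadjusted p under 0.05. The other Gja1 probe sets were dim. On array B rc_AI043613_at measured 162.1 and 133.3 in congenic kidneys, against 154.6, 51.9 and 222.0 in Dahl S kidneys, with 2 of 5 values under the floor. On array A rc_AI029183_s_at measured 136.2 and 157.6 in kidneys 4 and 5, against 157.8, 161.2 and 98.5 in kidneys 1 to 3.

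Gja4, an endothelial connexin, varied least of the tested members of array C. On array C rc_AI233972_at measured 869.1 and 821.7 in congenic kidneys, against 835.0, 830.6 and 805.5 in Dahl S kidneys, and the highest value was 1.08 times the lowest. The log2 difference was 0.04 (SE 0.13, 95% interval -0.27 to 0.34, limma adjusted p = 0.97). A difference anywhere in that interval remains possible. On array A M76532cds_at measured 706.2 and 779.7 in kidneys 4 and 5, against 688.9, 626.1 and 717.5 in Dahl S kidneys 1 to 3. Kidney 5 was the highest and kidney 4 lay within the Dahl S range on the deposited scale, but both lay above it with quantile normalisation or median scaling.

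The 3 Gja5 probe sets, all on array A, did not move together. Gja5 is the connexin of arterial endothelium and of renin-producing cells. AF022136_at measured 570.9 and 607.9 in kidneys 4 and 5, against 533.6, 361.4 and 464.4 in Dahl S kidneys 1 to 3, so that both lay above every Dahl S kidney (0.35 and 0.44 over the Dahl S mean on the log2 scale, Dahl S SD 0.29), as did 8.82% of all tested probe sets on array A. M76535cds_at measured 1449.8 and 1343.7 in kidneys 4 and 5, against 1540.7, 1626.2 and 1321.6 in kidneys 1 to 3. Here kidneys 4 and 5 lay inside the Dahl S range, at -0.04 and -0.15 from its mean. M76535cds_g_at lay under the floor in all kidneys but kidney 5, with 43.2 and 115.3 in kidneys 4 and 5 against 41.1, 52.1 and 70.3 in kidneys 1 to 3.

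**Figure D3:**
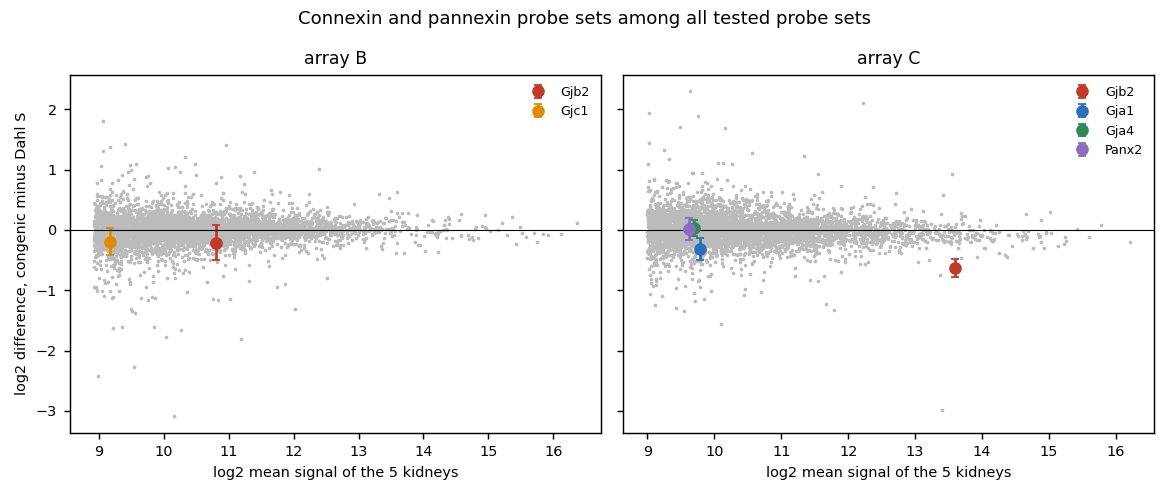
Log2 difference between strains, congenic minus Dahl S (vertical axis), against the log2 mean signal of the 5 kidneys (horizontal axis) for all tested probe sets of arrays B (left) and C (right). Grey points are single probe sets, coloured points are connexin and pannexin probe sets, and bars are ± 1 SE. Gjb2 lies at -0.63 on array C and at -0.21 on array B, while Gja1 lies at -0.32, Gja4 at 0.04 and Panx2 at 0.02 on C.

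Of 18 other connexin and pannexin genes, 4 had probe sets on array A, 2 on B and 1 on C. Gjc1 (Cx45), a connexin of vascular smooth muscle, lies on chromosome 10. Its probe set on array B measured 407.4 and 673.5 in congenic kidneys, against 549.9, 610.9 and 640.7 in Dahl S kidneys. The congenic values lay on both sides of the Dahl S range, with a log2 difference of -0.19 (SE 0.23, 95% interval -0.74 to 0.35, limma adjusted p = 0.998). Panx2, a pannexin, measured 869.2 and 719.7 in congenic kidneys on array C, against 652.7, 877.3 and 833.3 in Dahl S kidneys (log2 difference 0.02, 95% interval -0.40 to 0.44, limma adjusted p = 0.987). Gjb6, which lies beside Gjb2 on chromosome 15, was too dim to be tested on array B, at 411.4 and 376.8 in congenic kidneys against 523.7, 408.1 and 261.3 in Dahl S kidneys. On array A the 3 probe sets of Gjb5, an epidermal connexin, were tested, and none had kidneys 4 and 5 apart from kidneys 1 to 3. Of all tested probe sets on A, 8.82% had both above and 10.1% both below, so none of 3 is a usual count. Gja6, Gja3 and Gjd2 were too dim to be tested there, and Gjd2, the connexin of neurons, lay under the floor in all 5 kidneys.

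No probe set for proteins that bind connexins or move them through the cell passed the threshold on either design, on which 0.0912% of all tested probe sets passed on B and 0% on C. On array B 0 of 15 tested probe sets of this list passed, with 7 differences above 0, 8 below and a median of -0.01, and on array C 0 of 8, with 2 above, 6 below and a median of -0.12. The medians over all tested probe sets were -0.01 on B and -0.01 on C, and by limma no probe set of the list had an unadjusted p under 0.05 on either design, where 3.49% of all tested probe sets on B and 6.2% on C did. The ubiquitin ligase Nedd4, which binds Cx43, had the smallest p of the list on array B, with 1791 ± 54.1 in congenic (SD, n = 2) and 2136 ± 164 in Dahl S kidneys (SD, n = 3, log2 difference -0.25, limma adjusted p = 0.998). On array C another Nedd4 probe set measured 2226 ± 87.9 in congenic and 2593 ± 11.8 in Dahl S kidneys (log2 difference -0.22, limma adjusted p = 0.865). Both Nedd4 probe sets were lower in both congenic kidneys than in every Dahl S kidney, as were 9.44% of all tested probe sets on B and 12.2% on C. The kinase Src, which phosphorylates Cx43, had log2 differences of -0.58 on B and -0.43 on C, with overlapping values on each. The cadherin Cdh2 on B (591 ± 27.5 in congenic and 514 ± 27.8 in Dahl S kidneys) and Tsg101 of the endosomal sorting machinery on C (771 ± 141 in congenic and 627 ± 38.0 in Dahl S kidneys) were higher in both congenic kidneys than in every Dahl S kidney without passing, as were 7.73% of all tested probe sets on B and 10.2% on C. In all, 3 of the 15 on B and 1 of the 8 on C were higher in this way, and 1 on each was lower.

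No probe set of claudins, which form the tight junction, or of desmosome genes passed the threshold, which 0.0912% of all tested probe sets did on B and 0% on C. On array B the 3 tested probe sets of this list had a median log2 difference of 0.19, with Cldn10 at 19259 ± 1510 in congenic (SD, n = 2) and 17087 ± 526 in Dahl S kidneys (SD, n = 3), Cldn2 at 6823 ± 1335 in congenic and 5981 ± 912 in Dahl S kidneys, and Cldn5 at 731 ± 99.4 in congenic and 670 ± 274 in Dahl S kidneys (limma adjusted p = 0.998 for each). On array C the median over 6 probe sets was -0.09. The desmoplakin gene Dsp gave opposite differences from its probe sets there, -0.22 at 3088 ± 23.6 in congenic and 3597 ± 112 in Dahl S kidneys, and 0.10 at 1248 ± 15.3 in congenic and 1164 ± 93.0 in Dahl S kidneys (limma adjusted p = 0.865 and 0.92). Cldn19 measured 3521 ± 546 in congenic and 3992 ± 93.4 in Dahl S kidneys on array C. Genes of nucleotide and adenosine signalling had 4 tested probe sets on C and none on B. Their median was -0.06, none passed, and Entpd5 had the smallest p, at 3925 ± 98.1 in congenic and 5113 ± 1149 in Dahl S kidneys (limma adjusted p = 0.853), followed by Entpd1 (842 ± 83.3 in congenic and 772 ± 71.0 in Dahl S kidneys) and Ada (1026 ± 53.2 in congenic and 1094 ± 99.3 in Dahl S kidneys). By limma none of the tested probe sets of these 2 lists had an unadjusted p under 0.05, where 3.49% of all tested probe sets on B and 6.2% on C did. With so few probe sets in the lists, none is a usual count at these shares.

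The tissue was checked against markers of the cells that carry these connexins. All 11 proximal tubule markers of the list were tested on array A, where their summed signal was 157422 to 188175 in kidneys 4 and 5 and 161412 to 199933 in kidneys 1 to 3. On array C, the design of the Gjb2 difference, 2 of the 11 were present. Ggt1, a brush border enzyme, measured 11134.0 and 10663.5 in congenic kidneys against 11684.3, 12297.5 and 13190.9 in Dahl S kidneys, and Pck1, of gluconeogenesis, 41283.9 and 18562.3 in congenic kidneys against 23614.9, 22091.4 and 23169.8 in Dahl S kidneys. Both congenic values of Ggt1 lay below every Dahl S value (log2 difference -0.18, limma adjusted p = 0.865), as did 12.2% of all tested probe sets on C. The summed signal of Ggt1 and Pck1 was 52418 and 29226 in congenic kidneys against 34389 to 36361 in Dahl S kidneys. It lay on both sides of the Dahl S range, and its highest value came with the Pck1 value of kidney 4. Of 9 liver markers, which would travel with Gjb1 and Gjb2 from liver tissue, all were on array A, where 7 of 20 probe sets lay under the floor in every kidney and 2, of Ttr and Serpina1, were tested; the liver sum was 1466 and 1748 in kidneys 4 and 5 against 1542 to 2051 in kidneys 1 to 3. On array C both liver probe sets lay under the floor in all kidneys. No marker of these lists had a signal of 0. The part of tubular cell content in the Gjb2 values was not tested.

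Among vessel markers, 3 of 10 endothelial genes were tested on array C, where the sum of the 4 present was 5188.5 and 4736 in congenic kidneys against 4656 to 5117 in Dahl S kidneys. Tie1, an endothelial receptor, was the lowest of them relative to Dahl S, at 318 ± 93.6 in congenic (SD, n = 2) and 665 ± 168 in Dahl S kidneys (SD, n = 3, log2 difference -1.06, limma unadjusted p = 0.0046 and adjusted p = 0.739). Both congenic values of Tie1 lay below every Dahl S value, as did those of 12.2% of all tested probe sets on C. It was the 1 of the 3 tested endothelial probe sets with an unadjusted limma p under 0.05, where 6.2% of all tested probe sets on C had one. Emcn measured 3487 ± 417 in congenic and 3083 ± 144 in Dahl S kidneys and Cdh5 648 ± 21.1 in congenic and 649 ± 23.2 in Dahl S kidneys. On array B 5 endothelial probe sets were tested, with 3 differences above 0, 2 below and a median of 0.02. Those of Tek (log2 difference 0.42) and 1 of Cdh5 (0.14) were higher in both congenic kidneys than in every Dahl S kidney (limma adjusted p = 0.998 for each). This held for 7.73% of all tested probe sets on B, and no endothelial probe set there was lower in this way. Smooth muscle markers on C summed to 3543 and 4680.5 in congenic kidneys against 4459 to 5341 in Dahl S kidneys (3 of 8 genes present). Their median log2 difference was -0.35, and 1 of the 3 had both congenic values below every Dahl S value, as did 12.2% of all tested probe sets. This was Acta2, the actin of smooth muscle, at 682.4 and 539.3 in congenic kidneys against 748.4, 750.6 and 822.5 in Dahl S kidneys (limma adjusted p = 0.794). On array A the smooth muscle sum over 6 genes was 9682 and 10546 in kidneys 4 and 5 against 10165 to 13833 in kidneys 1 to 3. Of 8 tested smooth muscle probe sets there, 2, of Tagln and Myl9, had both kidneys 4 and 5 below kidneys 1 to 3, as did 10.1% of all tested probe sets, and the other Tagln and Myl9 probe sets overlapped. The part of vessel cell content in the connexin values of arrays A and C was not tested. For endothelium on array A, the design of Gjb1 and Gja5, 4 of 10 endothelial genes summed to 1980 and 2472 in kidneys 4 and 5 against 2013 to 2396 in kidneys 1 to 3. Some collecting duct markers, but not all, were higher in kidneys 4 and 5 of array A. For 6 of their 10 tested probe sets, both lay above every Dahl S kidney, where 8.82% of all tested probe sets did. These were probe sets of Aqp2, Aqp3, Krt18 and Avpr2, with more than 1 each for Aqp2 and Avpr2. The probe sets of Krt8 and Scnn1g and another each of Krt18 and Avpr2 overlapped. Scnn1g measured 760.7 and 684.2 in kidneys 4 and 5 against 746.1, 753.8 and 803.6 in kidneys 1 to 3. The sum of the 7 genes was 20943 and 17660 in kidneys 4 and 5 against 14798 to 16898 in kidneys 1 to 3. The part of these cells in the Gjb1 and Gja5 values was not tested.

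A measure of RNA quality differed in the same direction on A and C. The ratio of the 3′ to the 5′ GAPDH control was 1.045 and 1.053 in congenic kidneys on array C against 1.090 to 1.108 in Dahl S kidneys, and 1.040 and 1.043 in kidneys 4 and 5 of array A against 1.065 to 1.072 in kidneys 1 to 3. On array B it was 1.074 and 1.171 in congenic kidneys against 1.111 to 1.177 in Dahl S kidneys. The Gjb2 values, read by another probe set on each design, separated on C and overlapped on B. On A, where the strain of kidneys 4 and 5 is unsettled, the Gjb2 values also overlapped. The beta-actin ratio did not overlap on A, at 1.322 and 1.347 in kidneys 4 and 5 against 1.422 to 1.552 in kidneys 1 to 3, but did on C, at 1.369 and 1.452 in congenic against 1.383 to 1.503 in Dahl S kidneys. The part of RNA quality in the Gjb2, Gjb1 and Gja5 values was not tested.

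**Figure D4:**
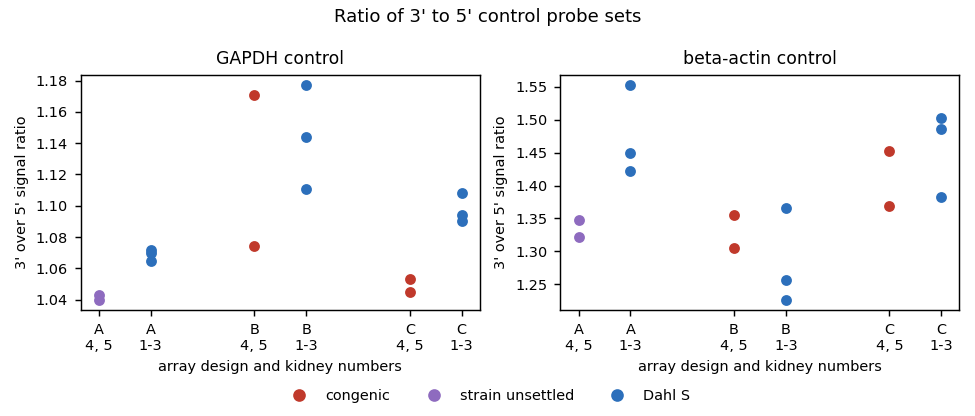
Ratio of the 3′ to the 5′ probe set (vertical axes, linear, not from 0) of the GAPDH (left) and beta-actin (right) controls, with kidneys 4 and 5 left of kidneys 1 to 3 for each array design. Each point is 1 array. The GAPDH ratio of kidneys 4 and 5 lies under that of kidneys 1 to 3 on A and C and overlaps with it on B.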

How the data were processed

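Gene expression was measured on 15 single-channel oligonucleotide arrays of 3 designs. The authors deposited 1 linear signal intensity for each probe set, and the labels name no software for it. Each array had been scaled before, as its mean without the top and bottom 2% lay between 1000.6 and 1001.3. That scale was kept, and it is unknown whether background was removed.

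Each design was processed alone. Values were raised to the 25th percentile of the design and taken to log2, and probe sets with a mean at or above the median of all values were tested, without the 59 control probe sets of each design. Symbols came from the platform annotation and were updated by gene identifier to RefSeq GRCr8, which matched, of the probe sets with 1 symbol, 6985 of 7006 (A), 5333 of 5351 (B) and 5804 of 5821 (C). Probe sets with several symbols (308, 38 and 45) or none (1426, 3343 and 2864) were not named. Congenic and Dahl S kidneys were compared on B and C by limma 3.58.1 (lmFit, eBayes; R 4.3.3) on whole tables, with Benjamini-Hochberg adjustment over all tested probe sets and a threshold of 0.05. Intervals are those of limma. The fit was also run on simulated data in which every probe set had the same spread, unlike the real ones. That run therefore does not show how the fit behaves at the real spreads.

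The members and gene lists were chosen with earlier results of these data known. Named genes were all member probe sets, the other connexins and pannexins measured, the 3 members with the smallest p of each list and design, and the 6 probe sets nearest to the brightest Gjb2 probe set on A and on C. Summed marker signals use the brightest probe set of each gene. Alternatives were 2 other scalings, 2 other floors, no filter, an intensity trend with robust variance, array weights and leaving out each array.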

Additional observations from a re-analysis of the deposited data

Results flagged for a closer look

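On array A, where the strain of kidneys 4 and 5 is unsettled and they entered no comparison, signals of 2 of the 5 tested connexin probe sets in these kidneys lay above every Dahl S kidney, as did 8.82% of all 4411 tested probe sets. For Gjb1 (X04070_at) they were 866.9 in kidney 4 and 916.7 in kidney 5, against 474.5 to 761.4 in Dahl S kidneys 1 to 3. For Gja5 (AF022136_at) they were 570.9 in kidney 4 and 607.9 in kidney 5, against 361.4 to 533.6 in Dahl S kidneys. Another Gja5 probe set, M76535cds_at, did not show this.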

How the results depend on the processing

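The Gjb2 difference on array C, for which Gjb2 was listed, was between -0.67 and -0.58 under the 7 other settings. On leaving out 1 array it was between -0.71 and -0.55. Its strain values do not overlap, so leaving out 1 array could not change its sign. Its signal lies far above each floor, so the other floors could not move it. Nor could leaving out the filter or using the intensity trend. The Gja1 difference on array C kept its sign under all 12 alternatives, between -0.53 and -0.10 on leaving out 1 array. The other floors, no filter and the intensity trend could not move the Gja1 difference, so its sign was fixed under them. The Gjb2 difference on array B ranged from -0.47 to 0.04 on leaving out 1 array, with the reversal to 0.0404 (limma adjusted p = 0.993) coming without congenic kidney 5. The Gja4 difference on array C turned to -0.000681 with median scaling and ranged from -0.00333 to 0.0776 on leaving out 1 array, the lowest without congenic kidney 4. Probe sets past the threshold on array B numbered 4, against 1 with quantile normalisation, median scaling, either other floor or array weights, and 0 to 31 on leaving out 1 array, with 31 without congenic kidney 5 and 0 without any 1 of the Dahl S kidneys. On array C there were 0, against 2 without a filter, 1 with an intensity trend and 0 to 34 on leaving out 1 array, with 34 without congenic kidney 5. On array A each member value of kidneys 4 and 5 was taken under 4 alternatives, 56 values in all. Of these, 49 moved by no more than the SD of the Dahl S kidneys. For the tested probe sets the 2 other floors could not move a value, so those count as unmoved by construction. Median scaling shifts the values of kidney 4 on array A, relative to kidneys 1 to 3, by 0.142 on the log2 scale, which moves its Gjb2 value to 0.39 and its Gja4 value to 0.20. Gjb1 and AF022136_at stayed above kidneys 1 to 3 under each scaling, and the floors could not change this. M76535cds_at in kidney 4 ranged from -0.06 to 0.10. Of the 6 probe sets nearest to Gjb2, 6 on A and 4 on C remained with the mean absolute difference. No paired analysis was possible because the strains share no kidney number. Dim probe sets, 2 of Gja1 and 1 of Gja5, have no usable difference.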
